A study of Mus musculus with 6 samples.

Results

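The ERK feedback genes are transcripts that the ERK kinase pathway switches on, many of which restrain it in turn, and 10 of them were followed here in Rbpms knockout hearts. They are the ETS factors Etv1, Etv4 and Etv5, the inhibitors Spry1, Spry2 and Spry4, the phosphatases Dusp4, Dusp5 and Dusp6, and the marker transcript Phlda1. They were picked by gene symbol out of the 20893 genes of the table, and each symbol occurred once. The choice was made with the knockout and wildtype values of these hearts known. The difference between the groups is therefore a description for these 10 genes, given without a p-value.

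The 3 knockout libraries (R1KO in the labels) came from hearts of mice with a germline knockout of Rbpms, which encodes an RNA-binding protein. The 3 wildtype libraries came from hearts of littermate controls, and the labels give the strain of all 6 as C57BL6/J. By the series title the hearts were embryonic, by the design text neonatal, and no age is given. No source used here states which part of Rbpms was deleted or how many animals stand behind a library, so p-values measure the spread between these libraries only.

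Growth factors bind receptor tyrosine kinases, which act through RAS, RAF and MEK to activate ERK. In the nucleus ERK relieves repression by Capicua and activates ETS factors, and Etv, Spry and Dusp transcripts accumulate. Their products close loops: Sprouty proteins act between the receptor and RAF, and dual-specificity phosphatases remove the phosphates from ERK itself. In the developing heart fibroblast growth factors and neuregulin are known inputs to this pathway.

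Messenger RNA was sequenced in single reads, and each value is a normalized read number. It is the number of reads on a gene multiplied by 1 factor for its library and rounded, as the spacing of the values shows. The reads recovered from these factors totalled 4163230 to 5805783 a library. Rbpms itself held 375, 340 and 507 in the knockout libraries, against 1182, 1176 and 1317 in the wildtype libraries. Its log2 difference was -1.6 with a standard error of 0.14 (limma, Benjamini-Hochberg adjusted p = 0.0124). The knockout thus kept reads on the gene. The adjusted p of Rbpms was 0.0523 without knockout replicate 1 and 0.0868, 0.0967 and 0.133 without wildtype replicates 1, 2 and 3. Knockout replicate 3 and wildtype replicate 1 had high Xist and almost no Ddx3y, so each group held 1 female and 2 male libraries.

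Knockout replicate 3 stood apart from the other libraries in its markers of other cell types. The summed value of 8 epicardial markers was 1736, 1868 and 1003 in knockout replicates 1, 2 and 3, against 1705 to 1908 in wildtype. The sum of 8 erythroid markers was 811, 907 and 2144 in the same order, against 741 to 957. In knockout replicate 3 the median log2 difference from the wildtype mean was -1.3 for the epicardial markers. For the 7 tested erythroid markers it was 0.33, beside 0.2 in wildtype replicate 3, so their sum stood further apart than their median. The 10 cardiomyocyte markers summed to 21683 to 24584 in knockout and 22914 to 25008 in wildtype libraries. Among the neural markers Th was at 0 in a library, while all 8 epicardial and all 8 erythroid markers were in the table with no 0.

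Promoter sequences are shown for 3 of the genes whose values did not overlap between the groups. The windows are those of RefSeq on GRCm38.p6, from 250 bases before to 50 bases after a gene start, 5′ to 3′ on the gene's strand. Of the 10 genes 6 had a window in that table, 8 windows in all. Etv5 had 2 start sites, at chr16:22438319-22438618 and chr16:22439521-22439820 on the reverse strand. Dusp6 lay at chr10:99262981-99263280 and Spry1 at chr3:37639697-37639996, both on the forward strand. Capitals mark AGGAAG, a motif bound by the Etv group of ETS factors, and TGAATG, the core of the site bound by Capicua, on either strand.
Etv5, window at 22438319: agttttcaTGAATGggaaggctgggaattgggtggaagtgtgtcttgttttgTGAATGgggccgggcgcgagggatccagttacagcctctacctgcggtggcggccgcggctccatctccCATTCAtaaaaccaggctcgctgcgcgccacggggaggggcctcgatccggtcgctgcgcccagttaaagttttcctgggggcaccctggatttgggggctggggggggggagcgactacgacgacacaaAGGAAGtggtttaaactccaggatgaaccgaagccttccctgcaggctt
Etv5, window at 22439521: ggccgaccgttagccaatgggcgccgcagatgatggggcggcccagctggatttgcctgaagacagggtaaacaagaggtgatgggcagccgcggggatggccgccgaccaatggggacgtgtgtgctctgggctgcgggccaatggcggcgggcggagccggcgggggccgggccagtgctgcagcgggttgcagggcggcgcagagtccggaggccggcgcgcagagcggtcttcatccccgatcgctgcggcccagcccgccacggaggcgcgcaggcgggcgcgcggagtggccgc
Dusp6: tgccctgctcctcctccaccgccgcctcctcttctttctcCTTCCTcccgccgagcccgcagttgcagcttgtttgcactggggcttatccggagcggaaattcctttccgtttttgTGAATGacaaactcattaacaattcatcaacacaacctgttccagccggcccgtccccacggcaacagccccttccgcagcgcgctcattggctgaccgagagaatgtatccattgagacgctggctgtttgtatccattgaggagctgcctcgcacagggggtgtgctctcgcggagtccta
Spry1: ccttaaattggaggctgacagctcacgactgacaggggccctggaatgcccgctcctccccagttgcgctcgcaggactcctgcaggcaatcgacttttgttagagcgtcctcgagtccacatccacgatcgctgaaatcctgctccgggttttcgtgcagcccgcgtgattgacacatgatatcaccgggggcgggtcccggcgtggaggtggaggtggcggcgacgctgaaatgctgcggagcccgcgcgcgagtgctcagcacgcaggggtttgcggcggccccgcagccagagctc

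The motif TGAATG occurred 3 times in the first Etv5 window and once in the Dusp6 window. The motif AGGAAG also occurred once in each of these windows, as CTTCCT on the shown strand of Dusp6. Neither motif was in the Spry1 window or in the second Etv5 window. Over the 8 windows TGAATG was found in 3 and AGGAAG in 4, where 12.7% and 35.4% of all 32817 windows hold them on either strand. The matches outside the windows shown were in Dusp5, with both motifs, and in Etv1, with AGGAAG. The values of Dusp5 and Etv1 overlapped between the groups. The longer Capicua forms TGAATGAA and TGAATGGA were in 0 of the 8 windows, with shares of 1.3% and 1.21% of all windows. The ETS consensus CCGGAAGT was in 0 of the 8 as well (3.89% of all), as were TGACTCA of AP-1 (5.2%) and TGACGTCA of CREB (1.79%). TGAATG lies inside both longer Capicua forms, and it was added after the sequences had been seen. A match of letters is a description of the window, not a binding site.

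Among the Etv genes, which encode the ETS factors of the PEA3 group, Etv5 was higher in every knockout library and the other two were not. Etv5 (ENSMUSG00000013089, mm39 chromosome 16, 22200059 to 22258469, reverse strand) held 271, 266 and 349 in the knockout libraries, against 124, 154 and 146 in the wildtype libraries. The lowest knockout library stood well above the highest wildtype library. The ratio of the group means was 2.09, with a log2 difference of 1.05 and a standard error of 0.13 on the log2(value + 1) scale. Etv1, an ETS factor known from mouse atrial and conduction muscle, held 278, 290 and 264 in knockout, against 313, 347 and 263 in wildtype libraries. Its groups overlapped, with a log2 difference of -0.14 and a standard error of 0.11. Etv4, with the fewest reads of the 10 genes, held 40, 69 and 69 in knockout, against 75, 52 and 50 in wildtype libraries. Its groups overlapped too, the log2 difference was -0.01 with a standard error of 0.26, and its sign changed with quantile normalization, in male libraries only and without knockout replicate 1 or wildtype replicate 1.

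**Figure D1:**
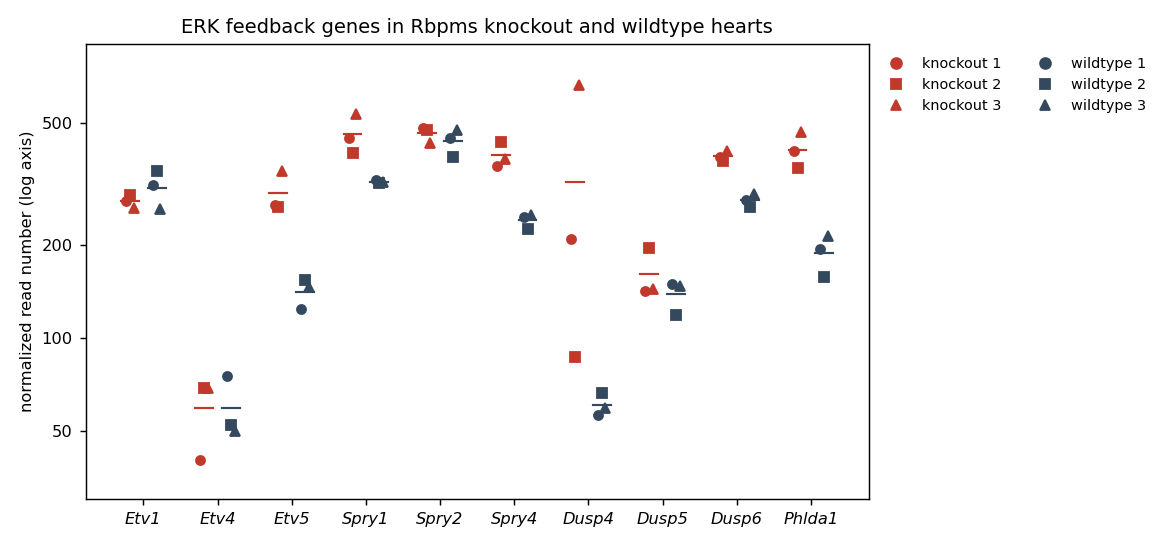
Normalized read number of each of the 10 genes in every library on a log axis, with knockout in red to the left of wildtype in dark blue, a marker shape for each replicate number and a bar at each group mean. Knockout and wildtype points are separate for Etv5, Spry1, Spry4, Dusp4, Dusp6 and Phlda1, and the Dusp4 knockout points run over 87, 210 and 662.

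Of the Sprouty genes, inhibitors that dampen signalling between receptor and RAF, Spry4 and Spry1 were higher in all 3 knockout libraries and Spry2 was not. Spry4 (ENSMUSG00000024427) held 362, 434 and 380 in the knockout libraries, against 246, 226 and 251 in the wildtype libraries. The groups were apart by more than the range within either one. Its ratio of means was 1.63 and its log2 difference 0.7 with a standard error of 0.09. Spry1 (ENSMUSG00000037211) held 445, 398 and 534 in knockout, against 325, 319 and 320 in wildtype libraries. The knockout libraries of Spry1 lay within 1.34-fold of each other, and the wildtype libraries within 1.02-fold. The log2 difference of Spry1 was 0.5 with a standard error of 0.1. Spry2, the most abundant of the 10 per length of exon, held 482, 472 and 430 in knockout, against 447, 388 and 472 in wildtype libraries. Its groups overlapped and its log2 difference was 0.09 with a standard error of 0.09.

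The 3 phosphatase genes differed in how evenly they stood in the knockout libraries. Dusp6 (ENSMUSG00000019960, mm39 chromosome 10, 99099093 to 99103351, forward strand), which encodes the cytoplasmic phosphatase specific for ERK, held 386, 375 and 405 in knockout, against 281, 267 and 294 in wildtype libraries. This was the most even of the 10 genes in the knockout, with 1.08-fold between its highest and lowest library, and no overlap with wildtype. Its ratio of means was 1.39 and its log2 difference 0.47 with a standard error of 0.08. Dusp5, which encodes a nuclear phosphatase of ERK, held 142, 196 and 144 in knockout, against 150, 119 and 147 in wildtype libraries. Only knockout replicate 2 lay above the wildtype range, and the log2 difference was 0.2 with a standard error of 0.16.

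Dusp4, which encodes a nuclear phosphatase that acts on ERK and other MAP kinases, had the largest difference and the widest spread of the 10. Dusp4 (ENSMUSG00000031530, mm39 chromosome 8, 35274451 to 35287048, forward strand) held 210, 87 and 662 in the knockout libraries, against 56, 66 and 59 in the wildtype libraries. The groups did not overlap, but knockout replicate 3 stood 7.61-fold above knockout replicate 2, while the wildtype libraries lay within 1.18-fold. The mean was 320 ± 303 in knockout and 60.3 ± 5.13 in wildtype (SD, n = 3 each). The log2 difference was 1.92 with a standard error of 0.69. It was 1.16 without knockout replicate 3, the library set apart above by its summed epicardial and erythroid markers, and 2.61 without knockout replicate 2. In the male libraries alone Dusp4 averaged 148.5 in knockout and 62.5 in wildtype. Of 11710 tested genes with a mean value of at least 50, only 10, Dusp4 included, had a log2 range within the knockout as wide as its 2.91. The part of those marker genes in this spread was not tested.

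Phlda1, a pleckstrin homology-like protein whose transcript is widely used as a readout of ERK output, was higher in every knockout library. Phlda1 (ENSMUSG00000020205, mm39 chromosome 10, 111342147 to 111344506, forward strand) held 404, 355 and 465 in the knockout libraries, against 194, 158 and 214 in the wildtype libraries. The lowest knockout library was above the highest wildtype library by more than the range within wildtype. Its ratio of means was 2.16 and its log2 difference 1.11 with a standard error of 0.13. A long noncoding gene on the opposite strand, Gm28592, overlaps Phlda1 and held 52, 53 and 76 in knockout, against 23, 16 and 27 in wildtype libraries. The kit marks strand, but the strand setting of the authors' counting is not given here, so reads of this pair cannot be told apart. Genes on the opposite strand overlap Spry1 and Dusp5 as well, Gm42922 with at most 24 and the noncoding Gm50394 with at most 7 in any library.

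In all, 6 of the 10 genes were higher in knockout with groups that did not overlap, and 0 were lower in this way. Of all 14974 tested genes 11.0% stood higher and 10.9% lower without overlap. By limma with an adjusted p under 0.05 over all tested genes, 4 of the 10 passed, Etv5, Spry4, Dusp6 and Phlda1, all higher. Over all tested genes 0.508% passed as higher and 0.434% as lower, 76 and 65 genes. That split was 42 and 58 when the libraries were scaled to a common total. Since the genes were chosen with this contrast known, nothing is read from these shares. The count of 4 became 0 without knockout replicate 1 or any 1 wildtype replicate, and 5 without knockout replicate 2 or 3. Over all tested genes the fits with 0 called 6, 3, 0 and 0, and those with 5 called 510 and 727. In bulk tissue, more cells that express a gene and more of its RNA per cell cannot be told apart.

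**Figure D2:**
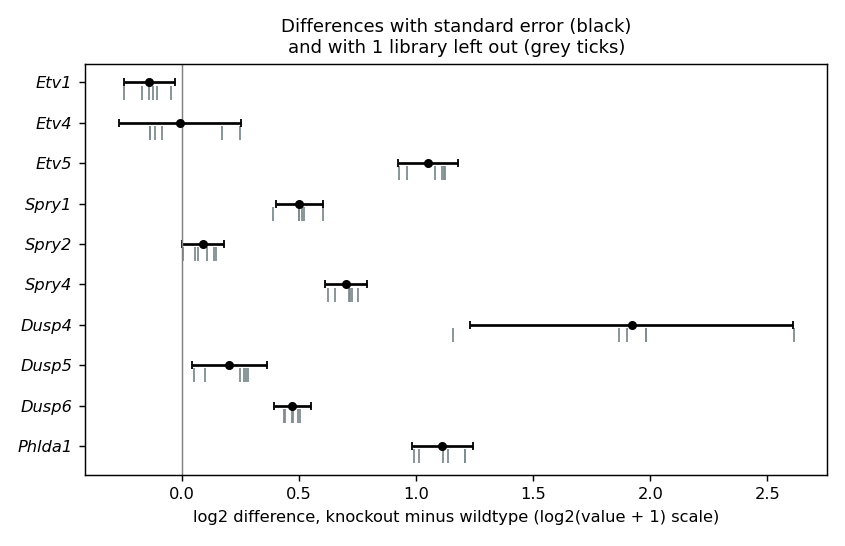
Log2 difference of each gene, knockout minus wildtype, on the log2(value + 1) scale, with its standard error in black and the 6 values with 1 library left out as grey ticks. Etv5 and Phlda1 lie near 1, Spry4, Spry1 and Dusp6 between 0.47 and 0.7, and the ticks of Dusp4 run over 1.16 to 2.61.

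The knockout libraries did not order the genes alike. Knockout replicate 3 was the highest knockout library for 5 genes, Etv5, Spry1, Dusp4, Dusp6 and Phlda1, and replicate 2 for 3, Etv1, Spry4 and Dusp5. Spry2 was highest in replicate 1, and Etv4 was tied at 69 in replicates 2 and 3. Against the wildtype mean, the median of the 10 genes was 0.46, 0.46 and 0.59 on the log2 scale in knockout replicates 1, 2 and 3. The wildtype libraries had medians of 0.03, -0.08 and 0.06. The summed value of the 10 genes was 3020, 2942 and 3702 in the knockout libraries, against 2211, 2096 and 2216 in the wildtype libraries. Dusp4 made up 662 of the 3702 in knockout replicate 3. Spry4 and Dusp5 were both highest in knockout replicate 2, where Dusp4, Spry1, Etv5, Dusp6 and Phlda1 were each at their lowest among the knockout libraries.

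**Figure D3:**
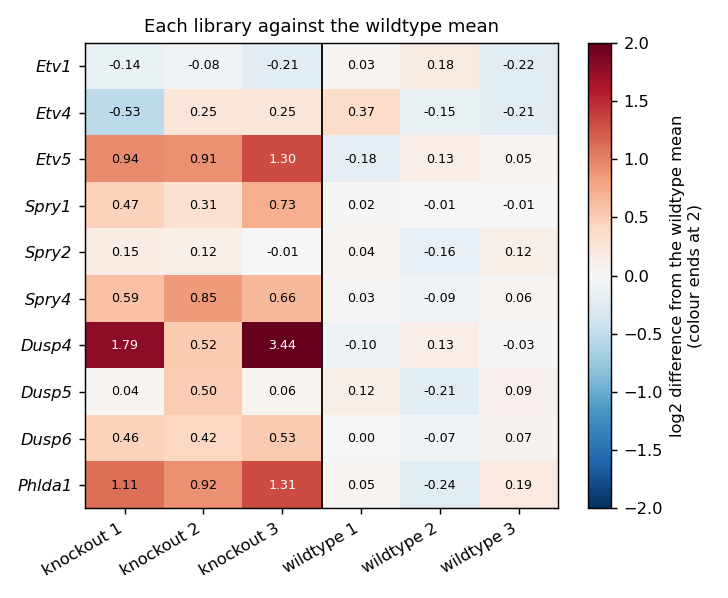
Each library against the wildtype mean of the gene, as a log2 difference printed in the cell and in colour (red higher, blue lower, colour ending at 2), with the knockout libraries left of the wildtype libraries. Etv5, Spry1, Spry4, Dusp4, Dusp6 and Phlda1 are red in all 3 knockout columns, and Dusp4 runs over 0.52 to 3.44 there.

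Per length, the order of the genes was not the same in the groups. Levels are given as recovered reads per kilobase of exon and 1000000 reads (RPKM), with exon lengths of GENCODE M21. In knockout hearts Spry2 led with 44.7 ± 2.8 RPKM, and Phlda1 was second by mean at 37.5 ± 5.08 RPKM (SD, n = 3 each). The libraries of Phlda1 overlapped those of Spry2 there, and also those of Spry1, which had 32 ± 4.8 RPKM. Dusp6 followed at 25.1 ± 0.988 RPKM, and Dusp4 had the fifth highest mean at 23.6 RPKM, with knockout libraries from 6.42 to 48.8. In wildtype hearts Spry2 led with 42.9 ± 3.95 RPKM, followed by Spry1 at 22.7 ± 0.336, Dusp6 at 18.4 ± 0.752 and Phlda1 at 17.5 ± 2.51 RPKM. Dusp6 and Phlda1 overlapped in their wildtype libraries, as did Dusp5 at 11.5 ± 1.41 and Spry4 at 10.4 ± 0.523 RPKM. Etv5 stood at 14.6 ± 2.27 RPKM in knockout and 7.08 ± 0.778 RPKM in wildtype hearts. Etv1 (4.76 ± 0.688), Dusp4 (4.53 ± 0.393) and Etv4 (3.89 ± 0.951 RPKM) came last in wildtype, and each overlapped the next.

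Genes outside the 10 with the most similar profile over the 6 libraries were found by the root mean square difference of centred log2(value + 1), among 11700 tested genes with a mean of at least 50. The closest to Spry1 was Trib1, a pseudokinase gene, at 0.016 on the log2 scale. It held 269, 240 and 326 in knockout, against 202, 195 and 198 in wildtype libraries. The closest to Dusp6 was the kinesin gene Kifc3 (0.022), and to Etv5 the ribosome biogenesis gene Rrp12 (0.052). The closest to Phlda1 was the cation channel gene Trpv4 (0.15), and to Spry4 the predicted gene Gm5113 (0.105). For Etv1, Etv4, Spry2 and Dusp5 the closest were Tcf20 (0.035), Serpinf1 (0.093), Tomm7 (0.02) and Sox9 (0.073).

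The distance of Dusp4 to its nearest gene was the largest of the 10 genes. The measure is not scaled to the spread of a gene, and Dusp4 had the widest, so its distances cannot be set against those of the others. The most similar gene was Agtr2, the type 2 angiotensin receptor, at 0.273, followed by Cnksr1, a scaffold of RAS signalling, at 0.306. Agtr2 held 87, 49 and 230 in knockout, against 34, 33 and 27 in wildtype libraries. Cnksr1 held 67, 47 and 217 in knockout, against 15, 21 and 18 in wildtype libraries. Both were picked for a profile like that of Dusp4, and both had its knockout order, with replicate 3 highest and replicate 2 lowest.

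**Figure D4:**
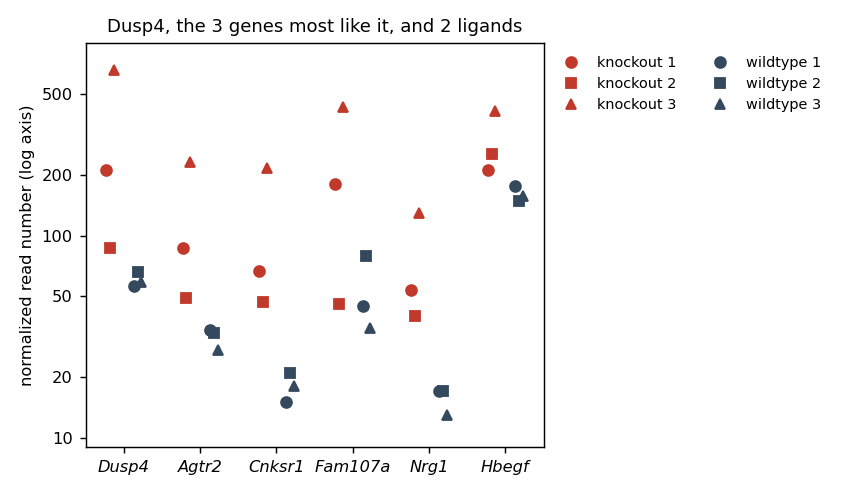
Normalized read number on a log axis of Dusp4, of Agtr2, Cnksr1 and Fam107a, the 3 genes with the most similar profile, and of the ligands Nrg1 and Hbegf, with knockout in red left of wildtype in dark blue. Knockout replicate 3 is the highest point for each gene, at 662 for Dusp4 and 230 for Agtr2.

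The remaining pathway was described with 7 lists of 154 genes, of which 142 were in the table and 127 were tested. By limma 0 of the 127 changed at an adjusted p under 0.05, where 0.942% of all tested genes did. By voom on recovered reads 0 changed as well, and limma had 18 higher and 4 lower at p under 0.05 before adjustment. Of all tested genes 8.54% were higher and 7.86% lower at that level. The median log2 difference over the 127 genes was 0.04, beside 0 for all tested genes. The number changed was 10 without knockout replicate 3 (8 higher and 2 lower) and 6 without knockout replicate 2 (5 higher and 1 lower). Those fits called 727 and 510 of all 14974 tested genes, against 141 in the main fit. The lower genes were Egf and Epha4 in the first and Dusp10 in the second. In each fit without knockout replicate 1 or a wildtype replicate, the number stayed 0.

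Among the growth factors and receptors that feed the pathway, several named genes stood near the threshold without passing it. Of 12 tested FGF ligands and receptors, Fgfr3 had the smallest p. This FGF receptor held 327, 299 and 268 in knockout, against 226, 190 and 192 in wildtype libraries (log2 difference 0.55, standard error 0.11, limma adjusted p = 0.0537). Its groups did not overlap, and it passed without knockout replicate 2 (0.0498) or 3 (0.00419), in male libraries only (0.00689), with sex as a covariate (0.0484) and with no filter (0.0357). Fgf18, a ligand singled out after its values were seen, held 82, 86 and 93 in knockout, against 49, 50 and 53 in wildtype libraries (log2 difference 0.77, limma adjusted p = 0.0555). It passed without knockout replicate 3 (0.0303) and with no trend or robust moderation (0.0494). Neither Fgfr3 nor Fgf18 passed without knockout replicate 1 or any 1 wildtype replicate, nor by voom. The receptor gene Fgfr1 held 605, 676 and 767 in knockout, against 682, 657 and 610 in wildtype libraries, and its groups overlapped. Of the ligands, Fgf9 held 161, 193 and 58 in knockout, against 176, 120 and 143 in wildtype libraries. Fgf16 held 114, 103 and 48 in knockout, against 125, 118 and 106 in wildtype libraries. For both, knockout replicate 3 was the lowest of the 6 libraries.

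Of 31 tested other growth factors and receptors, the one with the smallest p was Nrg1, the neuregulin ligand of ErbB receptors. It held 54, 40 and 130 in knockout, against 17, 17 and 13 in wildtype libraries, with a log2 difference of 2.01 and a standard error of 0.4 (limma adjusted p = 0.0601). It passed without knockout replicate 2 (0.0137) or 3 (0.00752), in male libraries only (0.0249), with sex as a covariate (0.0208) and with no filter (0.0431). Hbegf, another ligand of the ErbB family and singled out after its values were seen, held 212, 252 and 413 in knockout, against 176, 149 and 157 in wildtype libraries (log2 difference 0.8, limma adjusted p = 0.152). It passed without knockout replicate 3 (0.0201), in male libraries only (0.0394) and with sex as a covariate (0.0338). Neither Nrg1 nor Hbegf passed without knockout replicate 1 or any 1 wildtype replicate, nor by voom. Egf, an ErbB ligand likewise singled out, went the other way, at 27, 38 and 49 in knockout, against 69, 72 and 61 in wildtype libraries (log2 difference -0.85, limma adjusted p = 0.125, and 0.0127 without knockout replicate 3). Like Dusp4, Nrg1 and Hbegf were highest in knockout replicate 3. In the list as a whole 6 were higher and 1 lower at p under 0.05 before adjustment, and the median log2 difference was 0.12.

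In the cascade itself 0 genes passed the adjusted threshold. Of 27 tested genes of adaptors, RAS to ERK, the ERK5 branch and the RSK kinases downstream, 2 were higher and 1 lower at p under 0.05 before adjustment, with a median log2 difference of 0. Mapk3, which encodes ERK1, held 648, 632 and 623 in knockout, against 673, 623 and 688 in wildtype libraries. The smallest p was that of Ptpn11, which encodes the phosphatase SHP2 upstream of RAS, with a log2 difference of 0.32 (limma adjusted p = 0.13). The lower gene was Rps6ka1, a kinase downstream of ERK, at 141, 160 and 148 in knockout, against 183, 189 and 189 in wildtype libraries (log2 difference -0.32, limma adjusted p = 0.157). These are RNA levels, and the phosphorylation of ERK was not measured here.

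Of the other restraints of the pathway, 0 passed the adjusted threshold. Of 13 tested feedback inhibitors, Spred2, a Sprouty-related inhibitor of RAF, had the smallest p. It held 470, 489 and 479 in knockout, against 360, 404 and 355 in wildtype libraries, without overlap (log2 difference 0.36, standard error 0.07, limma adjusted p = 0.06). Its adjusted p was 0.0201 without knockout replicate 3. Errfi1, an inhibitor of the EGF receptor, held 289, 236 and 544 in knockout, against 253, 272 and 237 in wildtype libraries. Knockout replicates 1 and 3 lay above the wildtype range and replicate 2 below it. Of the 6 other tested MAP kinase phosphatases, Dusp8 had the smallest p (log2 difference 0.34, limma adjusted p = 0.159). Dusp1, which responds to many stresses, held 524, 445 and 419 in knockout, against 518, 366 and 448 in wildtype libraries. Dusp10 stood at 129, 179 and 100 in knockout, against 182, 172 and 222 in wildtype libraries (log2 difference -0.53, limma adjusted p = 0.246). Its adjusted p was 0.0404 without knockout replicate 2.

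Of 20 other tested transcripts listed as induced by ERK, 3 were higher and 0 lower at p under 0.05 before adjustment, with a median log2 difference of 0.1. The smallest p was that of Phlda3, better known as a p53 target that restrains AKT (log2 difference 0.33, limma adjusted p = 0.0991). The immediate early gene Egr1 held 277, 374 and 984 in knockout, against 404, 372 and 402 in wildtype libraries. Its 2 male knockout libraries were thus near wildtype or below it, and only knockout replicate 3 was above. The cyclin gene Ccnd1 held 678, 765 and 788 in knockout, against 765, 727 and 857 in wildtype libraries. Among 18 tested ETS factors and Capicua partners, Etv3, an ETS-domain repressor, had the smallest p. Etv3 held 455, 410 and 512 in knockout, against 341, 355 and 332 in wildtype libraries (log2 difference 0.42, limma adjusted p = 0.0669). It passed without knockout replicate 2 (0.023) or 3 (0.0294). Cic, which encodes Capicua, held 1514, 1512 and 1609 in knockout, against 1552, 1413 and 1522 in wildtype libraries.

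**Figure D5:**
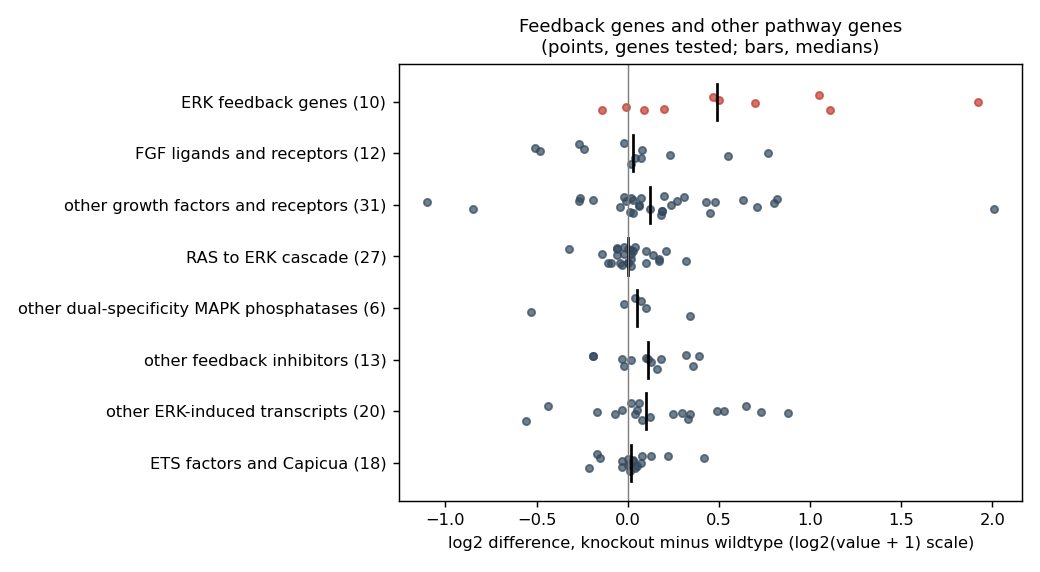
Log2 difference of every tested gene, knockout minus wildtype, on the log2(value + 1) scale, for the 10 ERK feedback genes (red) and for 7 lists of other pathway genes (dark blue), with a bar at each median and the number of genes tested in brackets. The median of the 10 feedback genes, which were chosen with these values known, is 0.49, and the list medians lie between 0 and 0.12.

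The summed markers of some cell types did not overlap between the groups. Of single tested genes, 11.0% stood higher and 10.9% lower in knockout without overlap. The 7 neural crest and neural markers in the table summed to 201 to 227 in knockout and 235 to 287 in wildtype libraries. Over the 5 tested, the median log2 difference from the wildtype mean was -0.14, 0.22 and -0.06 in knockout replicates 1, 2 and 3. It was 0.19, -0.14 and -0.01 in wildtype replicates 1, 2 and 3, so these medians overlapped. The sum of 10 endothelial markers was 9908 to 10380 in knockout and 9187 to 9811 in wildtype libraries. That of 8 smooth muscle and pericyte markers was 5465 to 5795 in knockout and 5981 to 6364 in wildtype libraries. The medians of the endothelial list and of the smooth muscle and pericyte list did not overlap between the groups either. The 10 markers of cycling cells summed to 1147, 1363 and 2748 in knockout replicates 1, 2 and 3, against 1804 to 2417 in wildtype libraries. By limma 0 markers of these lists changed at an adjusted p under 0.05. Their part in the values of the feedback genes was not tested. With knockout replicate 3 left out, the log2 differences were 0.93 for Etv5, 0.72 for Spry4, 0.39 for Spry1, 0.44 for Dusp6 and 1.01 for Phlda1.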

How the data were processed

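Heart RNA of 3 knockout and 3 wildtype mouse libraries was sequenced as stranded mRNA, as the labels' protocols state. The submitters' processing notes name the build mm39 and, without role or order, DESeq2 1.36.0, featureCounts 2.0.4, Picard 3.0.0, STAR 2.7.11a and Trimmomatic 0.39. The deposited values were treated as a score that the authors made by scaling and rounding read numbers. Factors of 0.8524 to 1.1798, estimated from the spacing of values under 400, gave the recovered reads. In the libraries with factors under 1, 7.01% to 30.12% of values could come from more than 1 read number.

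Genes that reached 10 in 3 or more libraries entered the test, made with limma 3.58.1 (statmod 1.5.0, R 4.3.3) on log2(value + 1), with trend and robust moderation and no covariate. P-values were adjusted by Benjamini-Hochberg over all tested genes, with a threshold of 0.05. Fold changes on this scale understate the change of low genes. The fitting was tested on simulated data. Exon lengths, of GENCODE M21 on GRCm38, were matched by gene ID for 96.5% of genes.

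The members, gene lists and tests were chosen with earlier results of these data known. Named are the 10 genes, Rbpms, in each pathway list up to 4 changed genes or else that with the smallest p, other list genes as background, and the nearest gene by profile. Alternatives covered scaling, pseudocount, filter, moderation, voom, sex, the replicate number and leaving out each library. Male libraries only was added after the data were seen.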

Additional observations from a re-analysis of the deposited data

How the results depend on the processing

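Over 17 alternatives 9 of the 10 feedback genes kept the sign of their log2 difference. Etv4 changed sign in 4 and ranged from -0.14 to 0.25. The settings for filter, moderation, sex and replicate number left every log2 difference as it was, so no sign could change in them. Spry2 kept its sign but fell to 0.0045 without wildtype replicate 2. The count of all changed genes, 141, was 218 with no filter on low values, 24 with no trend and no robust moderation, 73 by voom on recovered reads, 256 in male libraries only and 223 with sex as a covariate. It ran from 0 to 727 with 1 library left out. The 4 feedback genes past the threshold became 0 with no trend and no robust moderation, and 0 to 5 with 1 library left out. The count of 0 in the pathway lists became 2 with no filter, 1 with no trend and no robust moderation, 4 in male libraries only, 3 with sex as a covariate and 0 to 10 with 1 library left out. The log2 difference of Rbpms ran from -1.77 to -1.49 with 1 library left out and lost its call without knockout replicate 1 or any 1 wildtype replicate. The cause was not tested.

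With the replicate number as a block, 23 genes in all changed and 2 of the feedback genes passed. The numbers were not taken to pair samples, since no label says that a number marks a shared litter. Deviations of same-numbered libraries from their group means correlated at -0.17, -0.11 and -0.13. Etv4 rested on 42 to 81 recovered reads a library. In every fit, also where 2 libraries are left in a group, the groups share 1 estimate of spread for a gene.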
